A study of Mus musculus with 12 samples.

Results

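The transcription factors Eomes, Tbx21, Prdm1, Zeb2, Id2, Runx3, Runx1 and Bhlhe40, which are known for driving or tuning the effector programme of CD8 T cells, were followed in donor CD8 T cells with and without TCF-1. They were chosen by gene symbol, and all 8 were found, out of 35855 genes with a transcript in the files. Donor cells were CD8 T cells of C57BL/6 background, either wild type (WT) or TCF-1 cKO, in which Cre driven by the Cd4 promoter deletes the loxP-flanked gene of TCF-1, Tcf7, at the double-positive stage of the thymus and thus in all T cells. Each genotype was taken from the donor spleen (pre-transplant) and, by sorting donor-derived cells, from the spleen of irradiated BALB/c recipients at day 7 post-transplant, with 3 libraries in each of the 4 groups. No source used here says that the 3 libraries of a group came from separate mice, so p-values measure the spread between these libraries, which may be technical.

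Activated CD8 T cells become effector cells when T-box and RUNX factors switch on genes of killing, migration and interferon production. T-bet (Tbx21) and Eomesodermin (Eomes) are T-box factors that bind the same kind of DNA site, T-bet leading in short-lived effector cells and Eomes in memory cells. Runx3 establishes the CD8 lineage and opens cytotoxic genes, while Blimp-1 (Prdm1) and Zeb2 are repressors that close down naive and memory genes as effector cells differentiate. TCF-1 acts on the memory side of this balance.

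The libraries held 4520270 to 9577076 estimated counts in pre-transplant TCF-1 cKO and 18184814 to 32657005 in the other 3 groups, and each member passed the filter on low counts in every comparison. The targeted gene Tcf7 was at 66.9, 49.7 and 87.1 TPM (an abundance unit that accounts for the length of a transcript and the depth of its library) in pre-transplant WT and at 22.1, 31.7 and 38.6 TPM in pre-transplant TCF-1 cKO. At day 7 it was at 6.55 and 4.69 TPM in WT replicates 1 and 2, at 2.23 TPM in the library labelled WT replicate 3, and at 2.79 to 2.97 TPM in TCF-1 cKO. The library labelled WT replicate 3 thus lay below all TCF-1 cKO libraries, and every day 7 direction below includes it as labelled unless stated. One label of TCF-1 cKO day 7 replicate 2 names CD4 T cells, but this library held 0.453 TPM of Cd4 and 151 TPM of Cd8a. The pre-transplant libraries, labelled as sorted CD8 T cells, carried markers of other spleen cells. The 10 B cell markers summed to 16070 to 43281 TPM there and to 346 to 494 TPM at day 7, 10 myeloid markers to 2311 to 4982 against 139 to 913 TPM, 6 erythroid markers to 11997 to 56526 against 377 to 3003 TPM, and 5 NK cell markers to 352 to 567 against 26.2 to 91.9 TPM. No marker of these lists was at 0 in all libraries of a group. The 8 CD8 T cell markers summed to 1079 to 1645 TPM in pre-transplant TCF-1 cKO, 2995 to 3502 TPM in pre-transplant WT and 6692 to 16017 TPM at day 7. In such bulk libraries fewer CD8 T cells and less RNA of a gene per cell cannot be told apart.

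On the TPM scale, which allows genes to be compared, Id2 was the most abundant of the 8 factors in every group. Id2, an inhibitor that binds E proteins and keeps them from DNA, was at 131, 102 and 119 TPM in pre-transplant WT and at 98.5, 76.4 and 103 TPM in pre-transplant TCF-1 cKO. At day 7 it was at 307, 104.5 and 311 TPM in WT and at 339.8, 410.0 and 363 TPM in TCF-1 cKO, so WT replicate 2 lay apart at its pre-transplant level and the other day 7 libraries lay above all pre-transplant ones. The next in order was Tbx21 in WT, with a mean TPM of 38.8 pre-transplant and 119.7 at day 7, and Zeb2 in pre-transplant TCF-1 cKO, with a mean of 25.9 TPM. In day 7 TCF-1 cKO the ranges of Id2, Tbx21 and Bhlhe40, with mean TPM of 371, 17.5 and 12.4, did not overlap each other or that of Eomes below them, whereas Eomes, Runx3, Runx1, Prdm1 and Zeb2, with means from 4.99 down to 2.39 TPM, each overlapped the next. In day 7 WT the ranges of Id2 and Tbx21 overlapped, Tbx21 did not overlap Bhlhe40, and from Bhlhe40 (29.7 TPM) through Runx3, Runx1, Eomes and Prdm1 to Zeb2 (1.76 TPM) every neighbour overlapped. Pre-transplant, Tbx21, Zeb2, Runx3, Runx1 and Bhlhe40 overlapped in sequence in WT, from 38.8 to 16.8 TPM, and lay above Eomes (8.64 TPM) and Prdm1 (3.87 TPM). In pre-transplant TCF-1 cKO, Tbx21 (10.1 TPM) instead stood with Prdm1 and Eomes, and Bhlhe40, the next factor up at 16.1 TPM, did not overlap it.

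**Figure D1:**
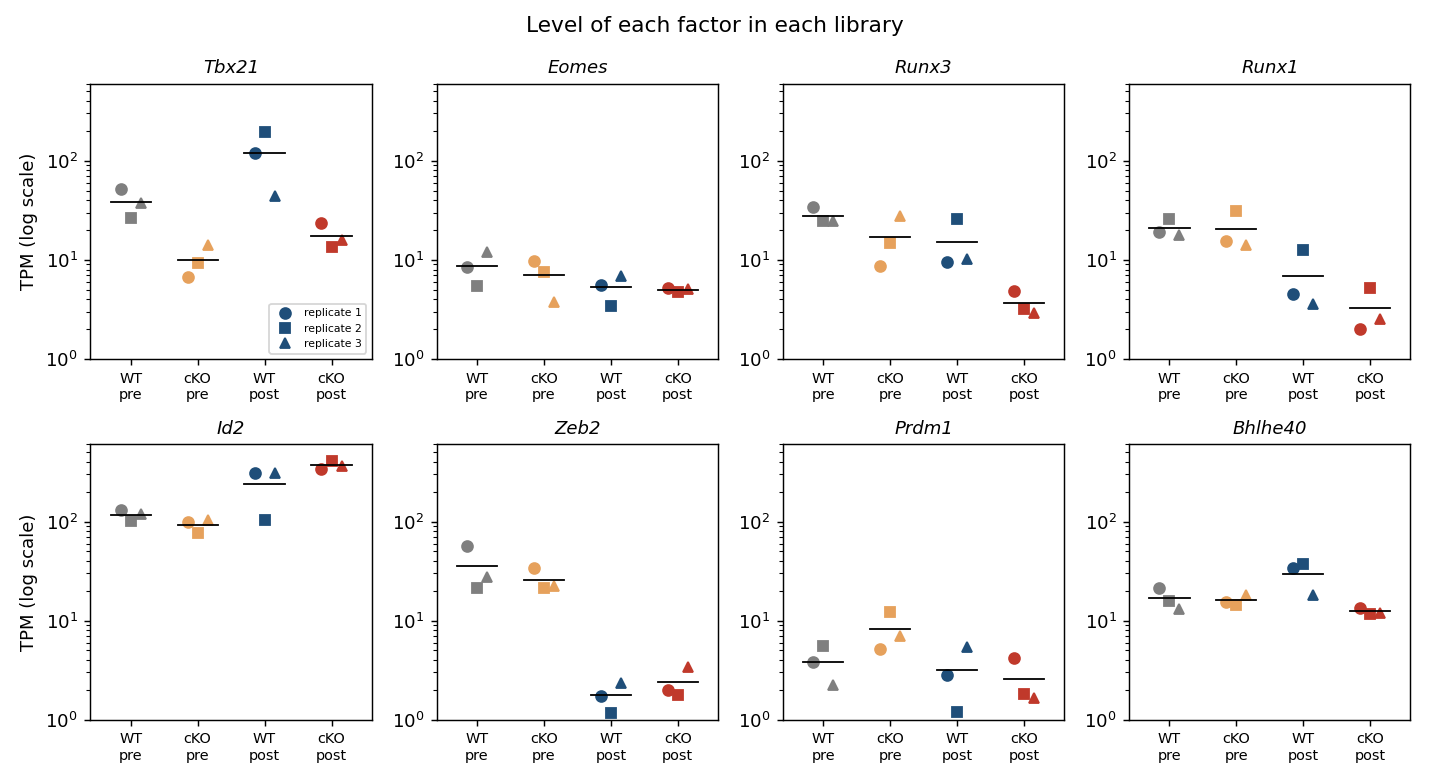
TPM of each factor (log scale) in the 3 libraries of each group, with marker shapes for replicates 1 to 3 and a line at the group mean. Tbx21 is lower in TCF-1 cKO than in WT libraries at both stages, Zeb2 lies between 1.16 and 3.39 TPM at day 7, and Eomes lies between 3.40 and 11.9 TPM throughout.

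TCF-1 cKO and WT cells were first compared at day 7. Tbx21, Runx3 and Bhlhe40 were lower in TCF-1 cKO, Runx1 had a smaller difference that missed the threshold, and Eomes, Prdm1, Id2 and Zeb2 differed by less than 1.5-fold. With edgeR's quasi-likelihood test and Benjamini-Hochberg adjustment over all 16026 genes tested, 3 of the 8 members passed an FDR of 0.1, all lower, where 17.9% of all genes passed. The median log2 fold change of the members was -0.99, beside 0.15 over all genes tested. The calls of all genes, the members among them, depended on single libraries. Leaving out any one of 5 libraries left 0 of the 8 past the threshold, with adjusted p from 0.109 to 0.229 for Tbx21, Runx3 and Bhlhe40, and 0 to 2 genes called in all, of 16667 to 17877 tested. Leaving out the library labelled WT replicate 3 gave 4 members, with Runx1 at -1.84 (adjusted p = 0.0423), beside 5299 of 18183 genes. Over all single-library omissions the log2 fold changes ran from -3.58 to -2.40 for Tbx21, -2.91 to -1.63 for Runx3 and -2.21 to -1.49 for Bhlhe40. The mean GC content of the transcripts behind the counts also differed between the groups at this stage, at 52.6%, 53.8% and 50.3% in WT replicates 1 to 3 and 48.4%, 49.5% and 48.3% in TCF-1 cKO. When the trend of each library on GC content and transcript length was removed, only Bhlhe40 of the 8 passed, beside 642 of 16026 genes. Cell content differed too, with myeloid marker sums of 139 to 218 TPM in WT and 259 to 913 TPM in TCF-1 cKO. Dendritic cell marker sums were 20.1 TPM or more in WT and 18.8 TPM or less in TCF-1 cKO. The sums of the other marker lists overlapped between the genotypes. Cd3e was at 110 to 571 TPM in WT and 49.4 to 59.8 TPM in TCF-1 cKO, while Cd8a overlapped. The part of cell content in the day 7 genotype values was not tested.

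Tbx21 (ENSMUSG00000001444, chromosome 11 from 97098071 to 97115331 in GRCm38, minus strand), which encodes T-bet, had the largest difference. It was at 120.4, 195 and 43.6 TPM in WT and at 23.4, 13.5 and 15.7 TPM in TCF-1 cKO. The groups did not overlap, and the WT libraries spread widely, replicate 2 being highest and the library labelled WT replicate 3 lowest. In TMM-normalized CPM, counts scaled to library size and by edgeR's composition factor, it was at 420.1 ± 319.6 in WT and 48.9 ± 13.7 in TCF-1 cKO (SD, n = 3, exact permutation p = 0.1, two-sided, which is the lowest value groups of 3 can give). The log2 fold change was -3.10 (SE 0.68, adjusted p = 0.0448), or 8.58-fold lower. Its GC content of 59.3% was the highest of the 8 factors, and with the GC content and length offset the log2 fold change was -0.59 (adjusted p = 0.288). Its only transcript in the files was Tbx21-201, so no sharing of reads between transcripts of this gene enters the value.

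Runx3 (ENSMUSG00000070691, chromosome 4 from 135120652 to 135177990, plus strand), a RUNX factor that silences Cd4 and maintains the cytotoxic lineage, was at 9.53, 25.9 and 10.3 TPM in WT and at 4.85, 3.18 and 2.88 TPM in TCF-1 cKO. No TCF-1 cKO library reached the lowest WT library, and WT replicate 2 was again highest. Normalized CPM were 83.9 ± 68.2 in WT and 14.8 ± 1.79 in TCF-1 cKO (SD, n = 3, exact permutation p = 0.1), a log2 fold change of -2.50 (SE 0.63, adjusted p = 0.0475). At a GC content of 56.2%, its log2 fold change with the offset was -0.70 (adjusted p = 0.333). Runx3-201, the transcript from the upstream promoter, held at least 75.8% of the Runx3 TPM in every library.

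Runx1 (ENSMUSG00000022952, chromosome 16 from 92601466 to 92826149, minus strand), the RUNX factor of thymocytes and resting T cells, was at 4.55, 12.4 and 3.62 TPM in WT and 2.02, 5.18 and 2.55 TPM in TCF-1 cKO. On this scale the groups overlapped, since TCF-1 cKO replicate 2 lay above WT replicates 1 and 3. In normalized CPM, at 12.7 ± 7.94 in WT and 4.70 ± 0.86 in TCF-1 cKO (SD, n = 3, exact permutation p = 0.1), they did not overlap, and the log2 fold change of -1.43 (SE 0.59, adjusted p = 0.153) missed the threshold. With the offset it was -0.01 (adjusted p = 0.993), from a GC content of 54.9% averaged over its transcripts by TPM. With plain means over its transcripts, at 50.7%, the offset gave -1.71 (adjusted p = 0.148), so the Runx1 value depended on the averaging. Runx1-204, a transcript of 336 bases, held 32.0% to 74.1% of the Runx1 TPM in WT and 57.2% to 82.3% in TCF-1 cKO.

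Bhlhe40 (ENSMUSG00000030103, chromosome 6 from 108660629 to 108666925, plus strand), a basic helix-loop-helix repressor needed for cytokine production and the metabolism of activated T cells, was at 33.7, 37.4 and 18.1 TPM in WT and at 13.4, 11.8 and 12.01 TPM in TCF-1 cKO. The groups did not overlap. Normalized CPM were 126 ± 63.5 in WT and 35.7 ± 5.64 in TCF-1 cKO (SD, n = 3, exact permutation p = 0.1), with a log2 fold change of -1.82 (SE 0.52, adjusted p = 0.0624). At a GC content of 49.5%, it kept its size with the offset, at -2.05 (adjusted p = 0.0949). Among other settings, it was no longer past the threshold with library totals in place of TMM (-1.27, adjusted p = 0.143), with voom and limma on TPM, or with an FDR of 0.05.

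The other factors differed less at day 7. Eomes (ENSMUSG00000032446, chromosome 9 from 118478212 to 118486132, plus strand) was at 5.52, 3.40 and 6.89 TPM in WT and at 5.22, 4.71 and 5.05 TPM in TCF-1 cKO, the TCF-1 cKO libraries falling inside the WT range. Its log2 fold change was -0.25 (SE 0.42, adjusted p = 0.726), and 0.91 (adjusted p = 0.360) with the offset, so the sign depended on it. Id2 (ENSMUSG00000020644, chromosome 12 from 25093799 to 25097140, minus strand) had a log2 fold change of 0.48 (SE 0.44, adjusted p = 0.495), its 3 TCF-1 cKO libraries lying above all WT libraries in TPM but not in normalized CPM. Zeb2 (ENSMUSG00000026872, chromosome 2 from 44983632 to 45117395, minus strand) stood at 1.75, 1.16 and 2.36 TPM in WT and 2.01, 1.78 and 3.39 TPM in TCF-1 cKO, on 79 to 143 counts a library, with a log2 fold change of 0.23 (SE 0.47, adjusted p = 0.779). Prdm1 (ENSMUSG00000038151, chromosome 10 from 44437177 to 44528501, minus strand) was at 2.82, 1.18 and 5.45 TPM in WT and 4.23, 1.81 and 1.64 TPM in TCF-1 cKO, with a log2 fold change of -0.55 (SE 0.59, adjusted p = 0.566).

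**Figure D2:**
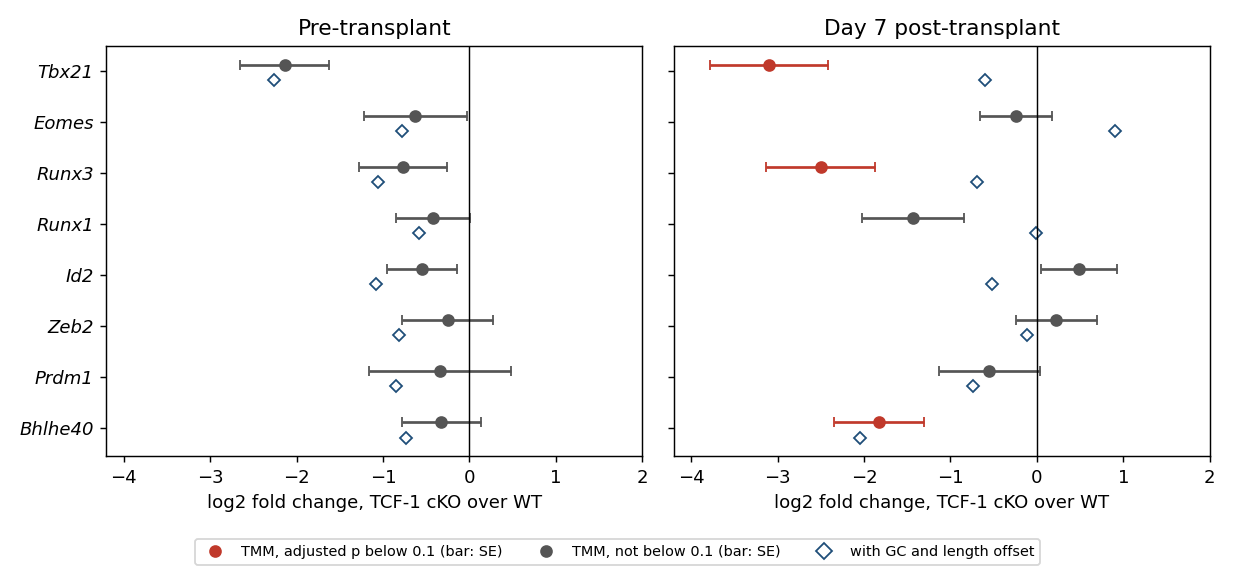
Log2 fold change of each factor, TCF-1 cKO over WT, pre-transplant and at day 7, from TMM-normalized counts (circles with SE, red where the adjusted p was below 0.1) and with the GC content and length offset (open diamonds, no error shown). At day 7 the diamonds of Tbx21, Runx3 and Runx1 lie at -0.59, -0.70 and -0.01, while that of Bhlhe40 stays at -2.05. Runx1 was at -1.71 with the offset from plain transcript means, which is not drawn.

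For the factors that were lower together at day 7, the 250 bases upstream of the first transcribed base were read from RefSeq promoter windows (GRCm38.p6), which held 12 windows for 7 of the members. Bhlhe40 has no entry. Capitals mark matches, on either strand, to the TCF/LEF motif CTTTGA, the T-box core TCACAC, the RUNX motif TGTGGT with its variant TGCGGT, the ZEB E-box CACCTG and the Bhlhe40 E-box CACGTG, none of which overlapped another in these sequences. The Tbx21 window is at chr11:97115332-97115581, minus strand, and the Runx3 window, at the upstream promoter, at chr4:135120395-135120644, plus strand.
Tbx21: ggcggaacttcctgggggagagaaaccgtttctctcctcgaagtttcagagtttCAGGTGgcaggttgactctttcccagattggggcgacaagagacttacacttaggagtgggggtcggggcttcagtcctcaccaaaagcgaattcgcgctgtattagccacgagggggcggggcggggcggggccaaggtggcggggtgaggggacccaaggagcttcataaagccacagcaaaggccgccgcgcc
Runx3: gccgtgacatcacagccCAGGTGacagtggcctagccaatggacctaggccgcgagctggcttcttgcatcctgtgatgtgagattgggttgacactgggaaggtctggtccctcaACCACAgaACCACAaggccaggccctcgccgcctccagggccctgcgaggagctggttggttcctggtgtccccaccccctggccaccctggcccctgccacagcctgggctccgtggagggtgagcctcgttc
Both windows hold CACCTG on the opposite strand, at position -196 in Tbx21 and -233 in Runx3, counted from -1 at the last base before the first transcribed base. The Runx3 window also holds TGTGGT on the opposite strand at -134 and again at -126. Over the 12 windows of the members, the ZEB E-box was found in 4, TGTGGT in 1, the Bhlhe40 E-box in 1, and the TCF/LEF motif, the T-box core and the RUNX variant in 0. Of all 32851 windows of this length, 17.2% hold the ZEB E-box, 14% TGTGGT, 6.02% the Bhlhe40 E-box, 13.8% the TCF/LEF motif, 12.3% the T-box core and 5.10% the RUNX variant. The GC content was 60.8% in the Tbx21 window and 65.2% in the Runx3 window.

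Pre-transplant, the same comparison asks whether loss of TCF-1 alters these factors before alloactivation. Tbx21 had the largest difference here too, and none of the 8 members passed an FDR of 0.1 with edgeR's quasi-likelihood test, where 0.0373% of the 18757 genes tested passed. Tbx21 was the 1 member with an unadjusted p below 0.05 in that test, beside 3322 of the 18757 genes. DESeq2 called 1 member, Tbx21 (adjusted p = 0.00941), beside 1451 of all genes, and limma-voom 0 members beside 2 genes. Tbx21 was at 52.1, 26.3 and 37.8 TPM in WT and at 6.66, 9.30 and 14.3 TPM in TCF-1 cKO. The groups did not overlap, and normalized CPM were 104 ± 37.3 in WT and 23.6 ± 11.3 in TCF-1 cKO (SD, n = 3, exact permutation p = 0.1), a log2 fold change of -2.13 (SE 0.51, adjusted p = 0.199). With the GC content and length offset it was -2.26 (adjusted p = 0.114). When TCF-1 cKO replicate 3 was left out it was -2.75 (adjusted p = 0.0199), with Runx3 then at -1.60 (adjusted p = 0.0591), beside 2739 of 21575 genes called in place of 7. The mean GC content of the transcripts behind the counts was 50.7%, 52.2% and 51.0% in WT replicates 1 to 3. In TCF-1 cKO it was 48.6%, 47.6% and 52.1%, so without replicate 3 the genotypes no longer overlapped in it. The part of GC content in that fit was not tested. In the fit with no library left out Cd8a was at -1.96 (SE 0.43) and Cd8b1 at -0.96 (SE 0.39), and the CD8 T cell marker sums were lower in TCF-1 cKO, as given above. Whether these differences in cell content have a part in the Tbx21 value was not tested.

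All other members had negative log2 fold changes of at most 0.77 in size pre-transplant. Runx3 was at 33.8, 24.6 and 24.7 TPM in WT and 8.68, 14.7 and 27.9 TPM in TCF-1 cKO, TCF-1 cKO replicate 3 lying inside the WT range, with a log2 fold change of -0.77 (SE 0.51, adjusted p = 0.417). Eomes was at 8.51, 5.51 and 11.9 TPM in WT and 9.81, 7.63 and 3.76 TPM in TCF-1 cKO (log2 fold change -0.63, SE 0.60, adjusted p = 0.560), and the groups overlapped. Runx1, at 18.9, 25.8 and 17.7 TPM in WT and 15.5, 31.5 and 14.2 TPM in TCF-1 cKO, gave -0.42 (SE 0.43, adjusted p = 0.587). Its groups overlapped in TPM but not in normalized CPM, at 53.6 ± 6.58 in WT and 40.0 ± 3.86 in TCF-1 cKO (SD, n = 3, exact permutation p = 0.1). Bhlhe40, at 21.4, 15.9 and 13.2 TPM and 15.4, 14.5 and 18.3 TPM, gave -0.33 (SE 0.46). The log2 fold changes of Id2, Zeb2 and Prdm1 were -0.55 (SE 0.41), -0.25 (SE 0.53) and -0.34 (SE 0.82). Those of Zeb2 and Prdm1 changed sign with library totals, under which the median log2 fold change of all genes was 0.39 in place of 0.05.

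Prdm1 was the factor whose scale mattered most. Pre-transplant it was at 3.81, 5.57 and 2.24 TPM in WT and at 5.23, 12.2 and 7.02 TPM in TCF-1 cKO, higher on average in TCF-1 cKO, while its counts gave a log2 fold change below 0. The TPM came largely from Prdm1-203, a retained-intron transcript of 830 bases whose 5′ end lies upstream of those of the Prdm1 coding transcripts. It held 93.7%, 91.6% and 92.9% of the Prdm1 TPM in pre-transplant TCF-1 cKO and 0%, 99.0% and 41.5% in pre-transplant WT. Protein-coding transcripts therefore held 6.33% to 8.38% of the Prdm1 TPM in pre-transplant TCF-1 cKO, against 35.2% to 89.5% in TCF-1 cKO at day 7. With protein-coding transcripts alone the pre-transplant log2 fold change was -1.04 (adjusted p = 0.764). The 5 plasma cell markers summed to 574 to 1429 TPM in pre-transplant WT and 398 to 557 TPM in pre-transplant TCF-1 cKO. Their part in these Prdm1 values was not tested. Coding transcripts held 6.43% to 62.0% of the Zeb2 TPM, and Zeb2-218, a processed transcript of 453 bases, held 0% to 68.3%. Tbx21, Eomes and Id2 TPM came from coding transcripts throughout. Within Eomes, Eomes-201 held 85.7% to 98.1% of the TPM in day 7 libraries and 10.9% to 90.9% pre-transplant.

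**Figure D3:**
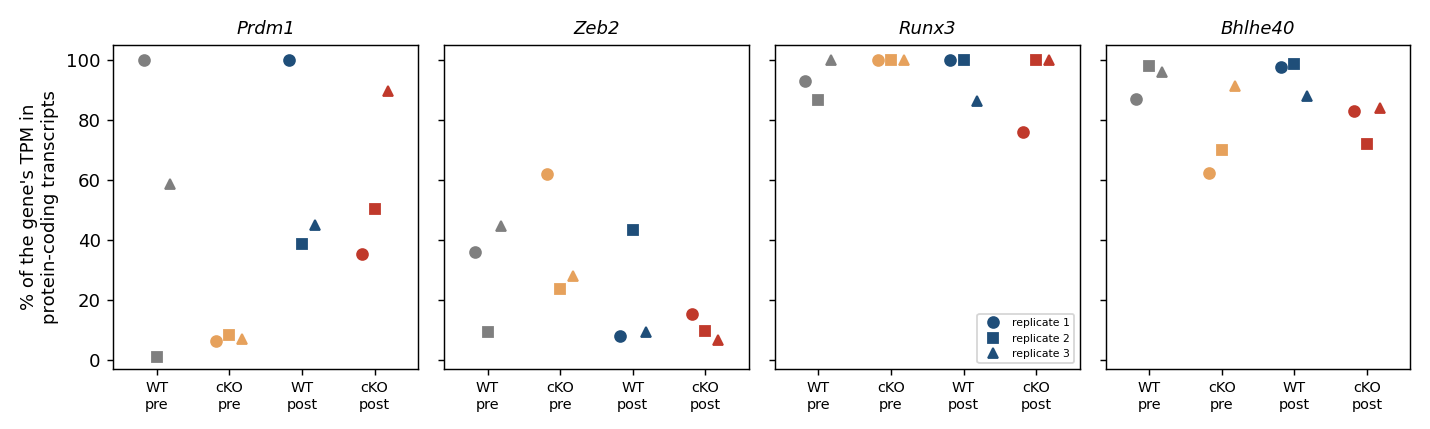
Share of the TPM of Prdm1, Zeb2, Runx3 and Bhlhe40 held by protein-coding transcripts, in percent, in each library of the 4 groups, with marker shapes for replicates 1 to 3. The 3 pre-transplant TCF-1 cKO libraries hold 6.33% to 8.38% for Prdm1, and every library holds at least 75.8% for Runx3.

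Day 7 was then compared with pre-transplant within each genotype. In WT, Tbx21, Id2 and Bhlhe40 rose and Zeb2 fell, so 4 of the 8 members passed an FDR of 0.1 (edgeR's quasi-likelihood test), where 20% of the genes tested passed (3362 of 16790). In TCF-1 cKO, Id2, Tbx21, Prdm1, Eomes and Bhlhe40 rose and Zeb2 and Runx1 fell, 7 of the 8 members, where 36.5% of 18535 genes passed. The median log2 fold change of the members was 1.03 in WT and 1.55 in TCF-1 cKO, beside -0.30 and -0.29 over all genes tested. These directions hold on the TMM scale, and 2 of the calls in TCF-1 cKO were also lost when TPM was the starting point. Prdm1 was then at 0.28 (adjusted p = 0.770) with counts scaled from TPM and at 0.30 (adjusted p = 0.703) with limma-voom on TPM, and Runx1 at -0.74 (adjusted p = 0.310) and -0.66 (adjusted p = 0.312). With library totals the median of all genes moved to -1.25 in WT and -1.89 in TCF-1 cKO, calls over all genes went from 1628 higher and 1734 lower to 717 and 4136 in WT and from 3660 and 3114 to 1660 and 10608 in TCF-1 cKO, and the members called were 2 higher and 2 lower in WT and 2 higher and 3 lower in TCF-1 cKO. Both stages also differ in the markers of B, myeloid, erythroid and NK cells given above, and those cells express several of these factors, so changes within CD8 T cells and changes in cell content cannot be told apart here. The 5 plasma cell markers summed to 398 to 1429 TPM pre-transplant and 2.59 to 6.27 TPM at day 7. The part of plasma cell content in the Prdm1 values was not tested.

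Id2 and Tbx21 rose under both scalings. Id2 had a log2 fold change of 2.27 (SE 0.52, adjusted p = 0.0179) in WT and 3.98 (SE 0.39, adjusted p = 0.000166) in TCF-1 cKO, which is 4.84-fold and 15.8-fold, and of 1.39 (adjusted p = 0.0855) and 2.44 (adjusted p = 0.000337) with library totals. Tbx21 had 2.89 (SE 0.67, adjusted p = 0.0185) in WT and 2.67 (SE 0.51, adjusted p = 0.00444) in TCF-1 cKO, and 1.81 and 1.15 with library totals (adjusted p = 0.0403 and 0.0447). On the TMM scale Cd8a had 2.14 (SE 0.50) in WT and 4.45 (SE 0.38) in TCF-1 cKO, and Cd8b1 2.47 (SE 0.43) and 3.53 (SE 0.39). Id2 lay between these CD8 genes in both genotypes, and Tbx21 above both in WT and below both in TCF-1 cKO. The part of CD8 T cell content in the Id2 and Tbx21 values was not tested. On the TPM scale, day 7 WT replicate 3 (43.6 TPM) lay inside the pre-transplant WT range for Tbx21, and day 7 TCF-1 cKO replicate 2 (13.5 TPM) lay inside the pre-transplant TCF-1 cKO range. Without pre-transplant WT replicate 3, Zeb2 alone of the 8 passed in WT, with Tbx21 and Id2 each at an adjusted p of 0.101. Over all genes the calls then fell to 1579 of 18860, from 3362 of 16790.

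Zeb2 fell most. It was at 57.3, 21.1 and 27.4 TPM pre-transplant and 1.75, 1.16 and 2.36 TPM at day 7 in WT, and at 33.8, 21.6 and 22.3 TPM and 2.01, 1.78 and 3.39 TPM in TCF-1 cKO. No day 7 library came near a pre-transplant one. The log2 fold changes were -3.57 (SE 0.67, adjusted p = 0.00743) in WT and -2.36 (SE 0.43, adjusted p = 0.00339) in TCF-1 cKO, with the same direction under library totals. Zeb2 is also a gene of myeloid and NK cells. The 10 myeloid markers summed to 2311 to 4982 TPM pre-transplant and 139 to 913 TPM at day 7. The 5 NK cell markers summed to 352 to 567 TPM and 26.2 to 91.9 TPM. The part of cell content in the Zeb2 values was not tested. Runx1 fell in TCF-1 cKO, with -1.46 (SE 0.42, adjusted p = 0.0286), and had -1.19 (SE 0.61, adjusted p = 0.233) in WT. Without TCF-1 cKO day 7 replicate 3 it was not called (-1.27, adjusted p = 0.110).

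Bhlhe40, Eomes and Prdm1 depended on the scaling. Bhlhe40 had log2 fold changes of 2.10 (SE 0.55, adjusted p = 0.0307) in WT and 1.34 (SE 0.42, adjusted p = 0.0409) in TCF-1 cKO on the TMM scale, but 1.06 (adjusted p = 0.153) and -0.21 (adjusted p = 0.665) with library totals. Eomes had 0.64 (SE 0.59, adjusted p = 0.525) in WT and 1.76 (SE 0.44, adjusted p = 0.0161) in TCF-1 cKO, but -0.24 and 0.10 with library totals (adjusted p = 0.801 and 0.873), and its mean TPM went from 8.64 to 5.27 in WT and from 7.07 to 4.99 in TCF-1 cKO. Prdm1 had 1.43 (SE 0.81, adjusted p = 0.282) in WT and 1.95 (SE 0.54, adjusted p = 0.0246) in TCF-1 cKO, but 0.59 and 0.33 with library totals (adjusted p = 0.635 and 0.652), and its mean TPM in TCF-1 cKO went from 8.15 pre-transplant to 2.56 at day 7. Relative to the median gene of each scaling, the log2 fold changes in TCF-1 cKO were 1.62 with TMM and 1.68 with totals for Bhlhe40, 2.05 and 1.99 for Eomes, and 2.24 and 2.22 for Prdm1. Without TCF-1 cKO day 7 replicate 1 Bhlhe40 was not called in TCF-1 cKO (adjusted p = 0.147), and without pre-transplant WT replicate 2 it was not called in WT (adjusted p = 0.122). Runx3 had 0.48 (SE 0.60) in WT and -0.56 (SE 0.54) in TCF-1 cKO, and with library totals it was called lower in TCF-1 cKO, at -2.04 (adjusted p = 0.00458).

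**Figure D4:**
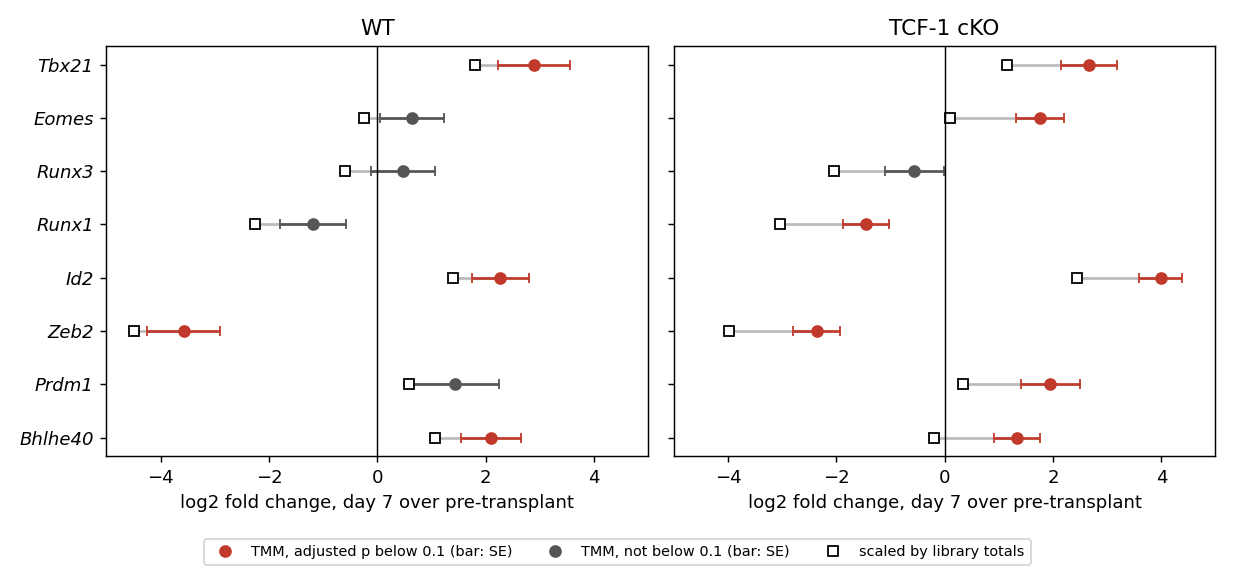
Log2 fold change of each factor at day 7 over pre-transplant in WT and TCF-1 cKO, from TMM-normalized counts (circles with SE, red where the adjusted p was below 0.1) and scaled by library totals (open squares). Every square lies to the left of its circle, and those of Eomes, Runx3 and Bhlhe40 cross 0 in 1 genotype.

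An interaction term, fitted to all 12 libraries, compared the genotype difference at day 7 with that pre-transplant. No member passed (edgeR, 0 of 8, where 0.00465% of 21526 genes passed). Id2 was the 1 member with an unadjusted p below 0.05 in edgeR's test, beside 3377 of the 21526 genes. DESeq2 and limma-voom called 0 members, beside 1713 and 1 of all genes. The interaction was 1.47 (SE 0.63, adjusted p = 0.292) for Id2, -1.31 (SE 0.86, adjusted p = 0.458) for Runx3 and -1.004 (SE 0.69, adjusted p = 0.476) for Bhlhe40. That Runx3 and Bhlhe40 were called at day 7 and not pre-transplant is therefore not shown to be a difference between stages, nor is it for Tbx21, at -0.47 (SE 0.85, adjusted p = 0.821). In the same fit Cd8a was at 2.08 (SE 0.60, adjusted p = 0.233) and Cd8b1 at 0.81 (SE 0.57, adjusted p = 0.492). The part of cell content in the interaction values was not tested.

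Genes that these factors are known to control were counted as a list of 12 effector genes. At day 7, of 11 tested, 4 were lower in TCF-1 cKO, 1 was higher and 6 did not pass, with a median log2 fold change of 0.78. Over all 16026 genes 2465 were lower and 403 higher (17.9% in all, median 0.15), and these calls too were subject to the single-library omissions described above. Lower were Cxcr3, a chemokine receptor (-3.86, SE 0.76), Ccl5, a chemokine (-2.94, SE 0.59), Il2rb, the CD122 chain of the IL-2 and IL-15 receptors (-3.53, SE 0.77), and Prf1, perforin (-2.96, SE 0.67), each with an adjusted p of 0.0448. Ifng was higher (1.70, SE 0.52, adjusted p = 0.0773). The transcripts of the 4 lower genes had a GC content of 53.6% to 55.4% and those of Ifng 43.5%, and the part of GC content in these values was not tested. From pre-transplant to day 7, on the TMM scale, 9 of 12 rose and 1 fell in WT (median 3.56), and 7 rose and 1 fell in TCF-1 cKO (median 1.71), S1pr5 being the gene that fell in each. Over all genes 20% of 16790 passed in WT (median -0.30) and 36.5% of 18535 in TCF-1 cKO (median -0.29). Gzmb, granzyme B, rose by 8.08 (SE 0.90) in WT and 9.28 (SE 0.51) in TCF-1 cKO on the log2 scale, and Klrg1, a marker of short-lived effector cells, by 5.41 (SE 0.80) and 6.68 (SE 0.69). Pre-transplant 0 of 12 passed, Il2rb having the smallest p (-1.02, SE 0.41).

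Of 12 partners and relatives of the factors, 11 were tested at day 7, and 3 were lower and 0 higher in TCF-1 cKO, where 17.9% of all genes passed in either direction. They were Id3, the other inhibitor of E proteins in T cells (-4.55, SE 0.81), Tcf3, which encodes the E proteins that Id2 binds (-4.15, SE 0.89), and Tle3, a corepressor (-3.004, SE 0.68), each at an adjusted p of 0.0448. Their transcripts had a GC content of 55.8%, 62.0% and 56.8%, whose part in these values was not tested. Cbfb, the partner subunit of Runx1 and Runx3, did not pass. Between stages Batf, an activation-induced factor, rose in WT (3.999, SE 0.49) and TCF-1 cKO (5.98, SE 0.52), while Irf4 fell (-2.88, SE 0.95, and -2.13, SE 0.41). The part of plasma cell content in the Irf4 values was not tested. Of the 11 tested, 1 was higher and 2 lower in WT, where 20% of all genes passed in either direction. In TCF-1 cKO 3 were higher and 4 lower, where 36.5% passed. Of 10 naive and memory factors, on the other side of the balance, 2 were lower at day 7 in TCF-1 cKO, Id3, which both lists hold, and Klf2 (-1.82, SE 0.56, adjusted p = 0.0750). From pre-transplant to day 7, on the TMM scale, 8 of these 10 fell in WT, where 20% of all genes passed in either direction, and 5 fell in TCF-1 cKO, where 36.5% passed, and 0 rose. The B cell marker sums went from 16070 to 43281 TPM down to 346 to 494 TPM between the same libraries, B cells also express Foxp1 and Bach2, and the part of B cell content in these values was not tested. Foxp1, a quiescence factor, had log2 fold changes of -3.92 and -3.15 and Bach2, a repressor of effector genes, of -3.78 and -3.17. In the interaction 0 genes of any of the 3 lists passed. Pre-transplant, no partner and no naive or memory factor passed either, Bhlhe41, a close relative of Bhlhe40, being highest (3.03, SE 0.55, adjusted p = 0.154).

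The genes whose pattern was most like that of each factor were taken as the 3 with the highest Pearson r of log2(CPM + 1), TMM-normalized over the 12 libraries, among 9154 genes with a mean of at least 10 CPM. These 12 points fall into both stages and share libraries and base composition, so r is a description only. For Tbx21 they were Sla2 (0.99), Cd3e (0.98) and Efhd2 (0.98), and for Bhlhe40 the tubulin gene Tuba1b (0.99), Ctsd (0.99) and Tuba1c (0.98). For Id2 they were Dph3, Gm10177 and Gimap7 (0.99 each), and for Zeb2 Brwd1 (0.98), Xkrx (0.97) and Cr2 (0.97), the last a B cell gene. Eomes was most like Ywhab, Pitpna and Tmpo (0.97, 0.97 and 0.96), Runx3 like Mfsd5, Stim1 and Nrde2 (0.96, 0.96 and 0.95), Runx1 like Gga3, Abcg1 and Mmachc (0.98, 0.97 and 0.97) and Prdm1 like Mgme1, Ncbp2 and Dpysl2 (0.95, 0.92 and 0.92).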

How the data were processed

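The authors made SMART-Seq HT cDNA and Nextera XT libraries, sequenced them paired-end, and pseudoaligned the reads with Kallisto 0.46.2. They deposited for each of 117497 transcripts an estimated count, not scaled for depth or length, and a TPM value, scaled by the authors for both. The transcript release is not given in the sources used here. Transcripts were joined without version numbers to GENCODE M21 (GRCm38). A gene was found for 116374 of them, and values were summed per gene, with estimated counts rounded to whole numbers.

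Comparisons used edgeR 4.0.16 (TMM, filterByExpr, quasi-likelihood test, Benjamini-Hochberg adjustment over all genes tested, FDR 0.1), within stage, within genotype, and as an interaction over all 12 libraries. SE is the size of the log2 fold change over the square root of F. For single members an exact permutation test, two-sided, was run on log2(CPM + 1). The GC content and length offset removed the loess trend (span 0.4, degree 2) of each library. Depth ranged from 4520270 to 32657005 estimated counts, where 3 counts are 0.664 to 0.0919 CPM, for counting error only. Alternatives were limma-voom 3.58.1, also on TPM, DESeq2 1.42.0, other scalings and filters, a replicate block, the offset, and single-library omissions. Protein-coding transcripts alone and an offset from plain transcript means were added after the data were seen. Methods were run on simulated counts with known changes, drawn with the same dispersion for all genes and no trend on GC content. That simulation cannot speak to the dependence on GC content or on single libraries. The work was done in R 4.3.3 and, with pandas 2.3.3 and SciPy 1.17.1, in Python 3.11.15.

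The members and lists were chosen with earlier results of these data known. Named were the 8 members, Tcf7, Cd4, Cd8a and Cd8b1, up to 4 genes of each list and comparison with the smallest p, the 3 genes most like each member, and transcripts with at least 20% of a gene's TPM in 3 libraries. Cbfb at day 7 falls outside this rule and was named after its value was seen. CD4 T cell markers summed to 35.3 to 102 TPM pre-transplant and 19.1 to 36.5 TPM at day 7. Plasma cell markers summed to 398 to 1429 TPM and 2.59 to 6.27 TPM, and dendritic cell markers to 112 to 389 TPM and 14.0 to 117 TPM.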

Additional observations from a re-analysis of the deposited data

How the results depend on the processing

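Over the 5 comparisons and the alternatives run, members called moved by over 1.5 times as follows. Pre-transplant, 0 became 1 with DESeq2 and with no filter, and 0 to 2 over single-library omissions. At day 7, 3 became 1 with the GC content and length offset and with the offset from plain transcript means, 0 with the replicate block with GC content and length offset, and 0 to 4 over omissions. In WT over time, omissions gave 1 to 4. Genes called over all genes at day 7 went from 2868 to 642 with the offset, 1023 with plain means, 2 with block and offset, 4524 with DESeq2, 0 to 2 without any one of 5 libraries and 5299 without the library labelled WT replicate 3. Pre-transplant they went from 7 to 1451 with DESeq2, 619 with no filter, 222 with limma-voom on TPM, and 0 to 2739 over omissions, the highest without TCF-1 cKO replicate 3. In the interaction they went from 1 to 1713 with DESeq2, 580 with no filter, 145 with limma-voom on TPM and 2093 without the library labelled WT day 7 replicate 3. Over time they went from 6774 to 12268 with library totals in TCF-1 cKO, and from 3362 to 1579 in WT without pre-transplant replicate 3.

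Signs reversed for these log2 fold changes, none of them called except Bhlhe40. With library totals: Prdm1 0.030 and Zeb2 0.15 pre-transplant, Eomes 0.13 at day 7, Eomes -0.24 and Runx3 -0.60 over time in WT, Bhlhe40 -0.21 over time in TCF-1 cKO, and Prdm1 -0.26 in the interaction. With limma-voom on TPM and with counts scaled from TPM: Prdm1 0.60 and 0.84 pre-transplant, -0.70 and -0.86 in the interaction. With the offset, the block and offset, and plain means: Eomes 0.91, 1.17 and 0.91, Id2 -0.52, -0.51 and -0.11, and Zeb2 -0.11, -0.062 and -0.20 at day 7, and Tbx21 1.07, 0.95 and 1.10 in the interaction, and Runx3 0.69, 0.76 and 0.0070 over time in TCF-1 cKO. With block and offset also Runx1 0.012 at day 7, 0.32 (offset alone 0.29) and Prdm1 -0.095 in the interaction, with plain means Runx3 -0.29 over time in WT and 0.25 in the interaction, and with coding transcripts only Zeb2 -0.53 at day 7 and -0.15 in the interaction. Ranges over omissions that crossed 0 were -0.75 to 0.43 for Prdm1 and -0.66 to 0.21 for Zeb2 pre-transplant, -0.0094 to 0.28 for Zeb2 at day 7, -0.15 to 1.05 for Runx3 in WT and -0.82 to 0.40 in TCF-1 cKO over time, and in the interaction -0.73 to 0.71 for Prdm1, -0.85 to 0.095 for Runx1 and -1.004 to 0.31 for Tbx21. Beyond what the settings' construction shows, the cause was not tested.

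Same-numbered replicates deviated together with r of 0.11, 0.06 and 0.15 at day 7, where each library matched its own number best, and between -0.19 and 0.25 elsewhere, so the numbers were not taken to pair the libraries. The replicate block gave 2 members at day 7 (Bhlhe40 at an adjusted p of 0.111), 0 pre-transplant, 4 in WT and 7 in TCF-1 cKO over time, and 0 in the interaction. Over all genes it called, in the same order, 2038 of 16026, 0 of 18757, 3097 of 16790, 5478 of 18535 and 0 of 21526. The lowest depth, in pre-transplant TCF-1 cKO, left Prdm1 at 26 to 67 counts, which limits what could be detected for that gene. Leaving out 1 library moved at most 5 of the 8 factors in the TPM order of a group.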
